A study of Homo sapiens with 38 samples.

Results

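The genes described here are 10 genes of entry into and exit from mitosis. They are the cyclins CCNA2, CCNB1 and CCNB2, the kinase CDK1, the phosphatases CDC25B and CDC25C, and CDC20, FZR1, UBE2C and PTTG1. CDC20, FZR1 and UBE2C act with the anaphase-promoting complex (APC/C), and the product of PTTG1 is its target. These are called APC/C genes here, though none is a subunit of the complex. All 10 genes were chosen by name from the RNA-seq table of RKO cells, in which each was listed once. The rule used no measured value, but the genes were proposed with earlier results of these data known. The table held 25504 genes with a name of their own, of which 10865 had a mean of 1 FPKM or more over the 8 libraries, where FPKM is the number of fragments divided by transcript length in kilobases and by the mapped fragments of the library. All 10 genes passed this filter.

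RKO is a human colorectal cancer cell line. The study compared cells given DMSO with cells given NCD38, an inhibitor of the histone demethylase LSD1, or NCD38 joined through 2 β-alanine units to a pyrrole-imidazole polyamide, a synthetic molecule that binds the minor groove of DNA. NCD38-β2P4, the P4 conjugate, carries a polyamide for AT-rich sequence. NCD38-β2PIPP, the PIPP conjugate, carries one for a CG step between A or T bases, and the polyamides differ in 1 unit, pyrrole or imidazole. RNA was taken on day 30 or on day 4 of treatment, with 1 library for each of the 4 treatments on each day and no replicate within a condition. By the labels, every inhibitor was given at 2 μM and the medium held 0.1% DMSO, which is also what the control cells received. The study's methods give another unit for the dose of day 4. No genotype or transgene separates the groups, which all come from 1 cell line, and the days may differ in culture and sequencing run, which cannot be told apart from time of treatment.

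Depth, estimated from the FPKM of single fragments, was 12200000 to 22500000 fragments per library, and FPKM summed to 677739 to 822230. The epithelial keratin genes KRT8 (6.58 to 19.0 FPKM) and KRT18 (76.2 to 121 FPKM) and the intestinal factor CDX2 (7.48 to 11.6 FPKM) were present in every library. EPCAM ranged from 0.0922 to 6.53 FPKM, CDH1, which encodes E-cadherin, reached at most 0.0642 FPKM, and the villin gene VIL1 was listed at 0 throughout. The leukocyte markers PTPRC and CD3E and the endothelial marker PECAM1 were listed at 0, and COL1A1, COL1A2 and VWF reached at most 0.0152 FPKM.

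Cyclin A and the B-type cyclins switch on CDK1, the kinase that drives cells into mitosis, and the CDC25 phosphatases remove the phosphates that hold it inactive. The APC/C is a ubiquitin ligase that ends mitosis. With its co-activator CDC20 and then with FZR1 (also called CDH1, a different gene from that of E-cadherin), it marks cyclin B and securin, the product of PTTG1, for destruction, and UBE2C is an enzyme that hands it ubiquitin. Transcripts of most of these genes peak in G2 and M, when a CHR element and CCAAT boxes in the promoter take part in their control.

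The promoters of 5 of the genes are shown because they carry these letters in different arrangements. RefSeq start sites on the assembly GRCh38.p14 were given for 9 of the 10 genes, with 18 windows from 250 bases before to 50 bases after a start. UBE2C was not matched. The motifs searched on both strands were CHR letters and CCAAT, which reads ATTGG on the reverse strand. CHR letters here are TTTGAA or TTCGAA, forms of the core of the CHR element. Other forms were not searched, so a window without CHR letters may still hold the element. Matches on opposite strands may overlap, as they do in PTTG1. The bases from -130 to -1 are printed 5′ to 3′ on the strand of the gene, with the motifs in capitals.
CCNB1 (plus strand, chr5:69167020-69167149): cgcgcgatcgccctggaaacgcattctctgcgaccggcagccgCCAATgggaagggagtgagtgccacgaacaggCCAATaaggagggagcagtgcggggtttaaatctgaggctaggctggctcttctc
CCNB2 (plus strand, chr15:59105016-59105145): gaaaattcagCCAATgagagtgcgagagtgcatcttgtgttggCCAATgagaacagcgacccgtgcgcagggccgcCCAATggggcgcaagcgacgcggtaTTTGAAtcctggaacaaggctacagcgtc
CDC20 (plus strand, chr1:43358851-43358980): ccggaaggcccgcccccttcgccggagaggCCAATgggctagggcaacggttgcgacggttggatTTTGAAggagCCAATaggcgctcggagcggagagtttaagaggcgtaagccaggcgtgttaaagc
CDK1 (plus strand, chr10:60778348-60778477): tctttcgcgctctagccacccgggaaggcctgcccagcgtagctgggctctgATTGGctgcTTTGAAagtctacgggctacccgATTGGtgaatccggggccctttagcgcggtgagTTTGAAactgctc
CCNA2 (minus strand, chr4:121823884-121824013): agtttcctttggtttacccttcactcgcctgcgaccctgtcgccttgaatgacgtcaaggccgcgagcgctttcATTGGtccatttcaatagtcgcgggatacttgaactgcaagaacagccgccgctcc
The windows of CCNB1, CCNB2 and CDC20 held CCAAT repeatedly. For CCNB1 it stood at -87 and -55 from the start, and for CCNB2 at -244, -120, -87 and -54. CDC20 had CCAAT at -100 and -55 with CHR letters between them at -65, and CCNB2 had CHR letters at -29. The start of CDK1 shown had CHR letters at -69 and -13 and CCAAT, in reverse, at -78 and -46. CCNA2 had 1 CCAAT, in reverse at -56, and none of the CHR letters searched. These letters occurred in 8 of the 18 windows, against 16.4% of all 35116 RefSeq windows, and in a window of 6 of the 9 genes. CCAAT occurred in 12 of the 18 windows, against 34.6%, and in a window of 8 genes. It occurred at least 2 times in a window of 6 genes, a count of genes, where 10.8% of all windows held it so often. Some genes have several windows and so more chances for a match, and a match is a description of the sequence, not of binding.

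The genes lie on 7 chromosomes. In GRCh37 coordinates, the cyclin genes are at chr4:122737599-122745038 on the minus strand (CCNA2), chr5:68462962-68474072 on the plus strand (CCNB1) and chr15:59397325-59417244 on the plus strand (CCNB2). CDK1 is at chr10:62538089-62554610 on the plus strand, and its matched transcript has 8 exons and 1889 nt. The phosphatase genes are at chr20:3767419-3786768 on the plus strand (CDC25B) and chr5:137620958-137674044 on the minus strand (CDC25C). The APC/C genes are at chr1:43824652-43828874 (CDC20), chr19:3506309-3538332 (FZR1), chr20:44441215-44445596 (UBE2C) and chr5:159848862-159855746 (PTTG1), all on the plus strand. All 10 are protein-coding, and FPKM was given for the gene as a whole, over its exons.

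FPKM is per length, so the genes can be ordered within a library, but a dependence on GC content is not removed by this. UBE2C was the highest of the 10 in every library, and PTTG1, CDC20 and CCNB1 held the next 3 places. CCNB1 was the fourth in 7 of the 8 libraries, and with NCD38-β2P4 on day 30 it stood above CDC20. In the DMSO library of day 30 the FPKM values were 212 for UBE2C, 124 for PTTG1, 37.1 for CDC20, 23.7 for CCNB1, 15.6 for CDC25B, 15.5 for CCNB2, 14.9 for CDK1, 8.80 for FZR1, 5.11 for CCNA2 and 3.37 for CDC25C. CDC25B, CCNB2 and CDK1, the neighbours in the middle of this order, had close values, and no replicate gives the spread against which they could be compared. The place of CDK1 depended on the day. It stood between the fifth and the seventh place in the libraries of day 30 and was the lowest of the 10 in all 4 libraries of day 4. The GC content of CDK1 is at percentile 1.33 of expressed genes. In DMSO, genes of like GC content had a median log2 ratio of day 30 to day 4 of 1.62. The part of GC content in this order was not tested.

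The first question was how NCD38 related to these genes after 30 days. NCD38 was above DMSO for all 10, where it was above for 59.0% of expressed genes, and the B-type cyclins and CDC20 were more than 2-fold higher. Of the 10, 7 were higher by 1.5-fold or more on the FPKM + 1 scale and 0 were lower by as much, where 4.00% of the 10865 expressed genes were higher and 2.80% lower by that measure. The median log2 ratio of the 10 was 0.68 and that of all expressed genes 0.059. Rescaled by the median ratio over expressed genes, 6 of the 10 were higher by 1.5-fold or more, and the median was 0.65. CDC25C (0.56) then fell short. With the median of genes of like GC content subtracted, 5 were higher by as much, and the median was 0.57. CDC25C (0.53) and CDK1 (0.51) fell short on that scale. In bulk RNA, a larger share of cells in G2 and M and more of each transcript per cell cannot be told apart.

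Among the cyclins on day 30, CCNB1, the main mitotic cyclin, was at 23.7 FPKM with DMSO, 55.2 with NCD38, 36.9 with its P4 conjugate and 33.7 with its PIPP conjugate. CCNB2, the second B-type cyclin, was at 15.5, 33.6, 20.2 and 19.8 FPKM in the same order. CCNA2, the cyclin of S phase and G2, was at 5.11, 8.89, 6.57 and 6.20 FPKM. For each cyclin the NCD38 library was the highest, the DMSO library the lowest and the conjugates lay between. The log2 ratio of NCD38 to DMSO was 1.18 for CCNB1, 1.07 for CCNB2 and 0.69 for CCNA2. Without the added 1, the ratio of FPKM was 2.32 for CCNB1, with a counting half-width (95%) of 0.12 on the log2 scale, 2.17 for CCNB2 (half-width 0.17) and 1.74 for CCNA2 (half-width 0.23). The half-widths cover the counting of fragments only and rest on the estimated depth.

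CDK1 was at 14.9 FPKM with DMSO, 24.3 with NCD38, 21.1 with its P4 conjugate and 21.8 with its PIPP conjugate on day 30, so that all 3 inhibitor libraries lay above DMSO. Its log2 ratio to DMSO was 0.67, 0.48 and 0.52. CDC25C, the phosphatase that acts on CDK1 at entry into mitosis, was at 3.37, 5.59, 4.94 and 4.71 FPKM, with log2 ratios of 0.59, 0.44 and 0.38. For these genes the conjugates were closer to NCD38 than for CDC20. CDC25B, which starts the activation of CDK1 in G2, was at 15.6, 21.2, 15.4 and 16.1 FPKM, and only the NCD38 library stood apart, with a log2 ratio of 0.42.

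Among the APC/C genes on day 30, CDC20 was at 37.1 FPKM with DMSO, 82.1 with NCD38, 34.3 with its P4 conjugate and 38.6 with its PIPP conjugate. The ratio of NCD38 to DMSO was 2.21 in FPKM (log2 half-width 0.10), and the conjugates lay on either side of DMSO. FZR1, the other co-activator, was at 8.80, 10.7, 8.06 and 8.07 FPKM, and its log2 ratio for NCD38, 0.26, was the smallest of the 10. The ratio of CDC20 to FZR1 in FPKM was 4.22 with DMSO, 7.64 with NCD38, 4.26 with its P4 conjugate and 4.78 with its PIPP conjugate. UBE2C was at 212, 309.8, 222 and 233 FPKM and PTTG1 at 124, 219.9, 126 and 147 FPKM. For both, the NCD38 library was the highest of the day, with log2 ratios of 0.54 and 0.82. UBE2C, at 1.46-fold on the FPKM + 1 scale, fell just outside the 1.5-fold limit, and CDC25C, at 1.51-fold, just inside it.

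On day 4 the genes did not move one way with NCD38. CDC20, UBE2C, FZR1, CDC25B and PTTG1 had ratios above 0, and the 3 cyclins, CDK1 and CDC25C below 0. The median log2 ratio of the 10 was -0.093, and 0 of the 10 were at least 1.5-fold higher or lower, where 2.10% of expressed genes were higher and 22.5% lower. Rescaling the NCD38 library of day 4 by its median ratio over expressed genes raises all its log2 values by about 0.32. On that scale the median of the 10 was 0.24, and CDC20 (0.73), UBE2C (0.85) and FZR1 (0.61) were higher by 1.5-fold or more, so directions and counts on this day depend on the scaling. With the median of genes of like GC content subtracted, UBE2C and PTTG1 were higher by as much, and with smaller pseudocounts 3 of the 10 were lower by as much.

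CCNA2 was at 4.02 FPKM with DMSO, 2.40 with NCD38, 8.62 with its P4 conjugate and 10.4 with its PIPP conjugate on day 4. CCNB2 was at 31.6, 21.1, 38.1 and 41.5 FPKM, and CCNB1 at 77.3, 61.2, 70.9 and 73.5 FPKM. NCD38 was the lowest library for all 3 cyclins on this day, where it was the highest on day 30. The log2 ratio of NCD38 to DMSO was -0.56 for CCNA2, -0.56 for CCNB2 and -0.33 for CCNB1. Expressed genes of like GC content had a median of -0.53 for the bin of CCNA2 and CCNB1 and -0.61 for that of CCNB2. Relative to such genes, CCNA2 was at -0.026, CCNB1 at 0.20 and CCNB2 at 0.051.

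CDK1 had few fragments on day 4. It was at 1.22 FPKM with DMSO, 0.695 with NCD38, 1.80 with its P4 conjugate and 4.18 with its PIPP conjugate, which is an estimated 40, 17, 42 and 108 fragments. The ratio of NCD38-β2PIPP to DMSO was 3.43 in FPKM (log2 half-width 0.53), larger than counting error, and that of NCD38 was 0.570 (log2 half-width 0.82), within it. CDC25C was at 7.39, 4.64, 7.83 and 7.38 FPKM, low only with NCD38, and CDC25B at 33.3, 38.1, 34.1 and 33.9 FPKM, highest with NCD38.

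CDC20 was at 170.4 FPKM with DMSO, 225 with NCD38, 160.0 with its P4 conjugate and 138 with its PIPP conjugate on day 4. UBE2C was at 282, 403, 309 and 260.1 FPKM and FZR1 at 30.1, 36.7, 30.0 and 27.6 FPKM. These APC/C genes and CDC25B were highest with NCD38 on both days. PTTG1 was at 184, 203, 185 and 165 FPKM, also highest with NCD38. The log2 ratio of NCD38 to DMSO was 0.40 for CDC20, 0.51 for UBE2C, 0.28 for FZR1 and 0.14 for PTTG1. After the median of genes of like GC content was subtracted, UBE2C was at 0.86, PTTG1 at 0.75 and CDC20 at 0.35, while CDC25B was at 0.028 and FZR1 closer still to 0.

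The days can be pooled in 1 model, with day and treatment as terms (limma, 3 residual degrees of freedom). For NCD38 against DMSO, 0 of the 10 genes passed an adjusted p of 0.05, and 2 had an unadjusted p below it. These were UBE2C (log2 difference 0.53, 95% interval 0.17 to 0.89, limma adjusted p = 1) and CDC20 (0.76, interval 0.20 to 1.32, limma adjusted p = 1), which were higher on both days. Over all genes 4 passed (0.0368%) and 145 had an unadjusted p below 0.05. For CCNB1 the pooled difference was 0.43 with an interval from -0.46 to 1.31, and for CCNB2 0.26 with an interval from -0.86 to 1.37. For either conjugate against DMSO, 0 of the 10 passed in limma and 0 had an unadjusted p below 0.05, where 0.0184% of all genes passed in each comparison. In simulated data, this fit recovered 8% of genes changed 2-fold for NCD38, so a missed call says little at this size.

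The conjugates were compared with NCD38 and with each other at the same dose and days, in 3 pairs. On day 30 all 10 genes were lower with either conjugate than with NCD38. With NCD38-β2P4 the median log2 ratio to NCD38 was -0.46, and CCNB2 (-0.71), CDC20 (-1.23) and PTTG1 (-0.80) were lower by 1.5-fold or more, 3 of 10 where 3.51% of expressed genes were lower and 4.10% higher. With NCD38-β2PIPP the median was -0.43, and CCNB1 (-0.69), CCNB2 (-0.73) and CDC20 (-1.07) were lower by as much, 3 of 10 where 4.57% were lower and 4.10% higher. These comparisons share the NCD38 library with the ones above, so they are other views of the same values and not further evidence. Against DMSO on day 30, CCNB1 alone passed 1.5-fold with NCD38-β2P4 (log2 ratio 0.61), 1 of 10 where 1.43% of expressed genes were higher and 0.874% lower. This call was lost on rescaling by the median ratio (0.57) and on subtracting the median of genes of like GC content (0.44). With NCD38-β2PIPP 0 of 10 passed, where 1.72% were higher and 0.911% lower. The largest ratios with NCD38-β2PIPP were those of CDK1 (0.52) and CCNB1 (0.49).

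On day 4, CCNA2 passed 1.5-fold above DMSO with NCD38-β2P4 (log2 ratio 0.94), 1 of 10 where 7.87% of expressed genes were higher and 1.68% lower, and relative to genes of like GC content it was at 0.56, short of 1.5-fold. CCNA2 (1.19) and CDK1 (1.22) passed with NCD38-β2PIPP, 2 of 10 where 27.1% were higher and 1.91% lower. The other 8 genes lay between -0.30 and 0.38 with NCD38-β2PIPP. The share of 2 in 10 was near that of all genes. Genes of like GC content had a median of 0.78 for CCNA2 and 0.67 for CDK1 with NCD38-β2PIPP, and both genes lay above it, by 0.41 and 0.55, which is short of 1.5-fold. Relative to such genes, CCNB1 (-0.85) and PTTG1 (-0.62) were lower by more than 1.5-fold, so that the count became 0 higher and 2 lower. Against NCD38 on day 4, NCD38-β2P4 had 4 of the genes higher by 1.5-fold or more and 0 lower, where 36.6% of expressed genes were higher and 4.01% lower. With NCD38-β2PIPP 3 were higher and 2 lower, where 45.5% and 8.87% were. For the cyclins and CDK1 the conjugate ratios to NCD38 on day 4 were above 0, and for CDC20, UBE2C, PTTG1, FZR1 and CDC25B below 0.

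In the pooled fit, CDC20 was lower than with NCD38 by a log2 difference of -0.86 with NCD38-β2P4 (interval -1.42 to -0.30, limma adjusted p = 0.710) and of -0.89 with NCD38-β2PIPP (interval -1.45 to -0.33, limma adjusted p = 0.530). UBE2C differed by -0.43 (interval -0.79 to -0.070, limma adjusted p = 0.710) and -0.52 (interval -0.88 to -0.16, limma adjusted p = 0.530). CDC20 was lower with the conjugates on both days and so was UBE2C, but 0 of the 10 genes passed limma's adjusted p, where 0.00920% and 0.0184% of all genes did, and these were the 2 with an unadjusted p below 0.05 in either comparison. Between the conjugates, which differ in 1 polyamide unit, log2 ratios on day 30 lay between -0.22 (PTTG1) and 0.13 (CCNB1), and 0 of 10 were 1.5-fold apart, where 2.38% of expressed genes were higher and 1.41% lower. On day 4, CDK1 was lower with NCD38-β2P4 (log2 ratio -0.89), 1 of 10 where 8.77% of expressed genes were lower and 1.14% higher. In the pooled fit the interval of the difference between conjugates was -0.53 to 0.58 for CDC20, -0.27 to 0.45 for UBE2C and -1.52 to 0.59 for CDK1, with a limma adjusted p of 1 for each. By limma 0 of 10 passed, where 0.0276% of all genes did, and 0 had an unadjusted p below 0.05. These intervals do not show that the conjugates act alike.

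Between days, CDK1 was the gene that was higher on day 30, and CDC20, FZR1, CDC25B and CCNB1 were higher on day 4, each with no overlap between the 4 libraries of one day and the 4 of the other. How many of all expressed genes separate in this way was not counted, so the separation cannot be called particular to these genes. In the pooled fit 6 of the 10 genes passed limma's adjusted p, where 30.2% of expressed genes were higher and 31.7% lower on day 30. A share of 6 in 10 is near that of all genes.

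CDK1 rose on day 30 by 2.97 on the log2 scale (SE 0.30, limma adjusted p = 0.000913). In FPKM it was 12.3 times its day 4 value with DMSO, 35.0 times with NCD38, 11.8 times with its P4 conjugate and 5.23 times with its PIPP conjugate. The genes that were lower on day 30 were CDC20 (-1.90, SE 0.16, limma adjusted p = 0.000599), FZR1 (-1.69, SE 0.11, limma adjusted p = 0.000448), CDC25B (-0.99, SE 0.11, limma adjusted p = 0.00125), CCNB1 (-0.96, SE 0.25, limma adjusted p = 0.0197) and UBE2C (-0.36, SE 0.10, limma adjusted p = 0.0266). FZR1 ranged from 8.06 to 10.7 FPKM on day 30 and from 27.6 to 36.7 FPKM on day 4. CCNA2 (0.20), CCNB2 (-0.57), CDC25C (-0.46) and PTTG1 (-0.29) did not pass, with limma adjusted p values of 0.669, 0.170, 0.128 and 0.140. CCNB1 lost its call without the DMSO library of either day (difference -0.72) and without either library of NCD38-β2P4 (-0.97) or NCD38-β2PIPP (-0.91). UBE2C lost its call without the DMSO library of either day (-0.34) or either library of NCD38-β2P4 (-0.32), and also on rescaling by the median ratio and without the trend in limma's variance (-0.36 in each). Without either NCD38 library, CCNB2 (-0.97), CDC25C (-0.69) and PTTG1 (-0.43) passed as well.

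In this comparison the ratios moved with the GC content of the transcripts. Over 9831 genes, the Spearman correlation of the log2 ratio of day 30 to day 4 with GC content was -0.67 with DMSO and -0.78 with NCD38, and over the 10 genes it was -0.66 and -0.90. With genes split into 5 equal parts by GC content, the median ratio in DMSO was 1.44 in the lowest and -0.69 in the highest part. CDK1, with 35.4% GC, had a lower GC content than nearly all expressed genes (percentile 1.33), and FZR1 had 63.8% (percentile 93.3). After the median of genes of like GC content was subtracted, CDK1 kept a log2 ratio of 1.22 with DMSO, 1.84 with NCD38, 1.36 with its P4 conjugate and 1.12 with its PIPP conjugate. CCNB1, at 41.9% GC, lay on the other side of such genes, by -2.70 with DMSO, and CDC20 by -1.44. Other ratios came closer to 0, from -1.67 to -0.90 for FZR1, from -1.04 to -0.30 for CDC25B and from -0.41 to -0.062 for UBE2C. The part of GC content in these differences was not tested.

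**Figure D1:**
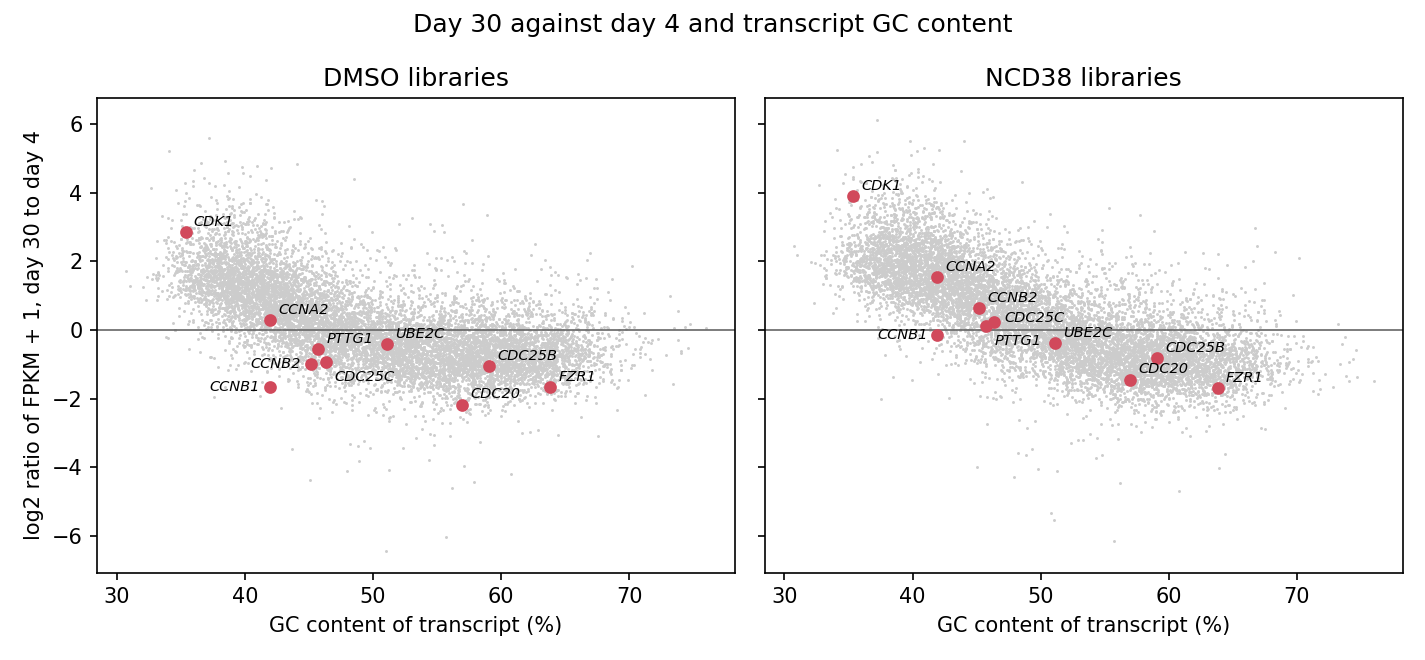
Log2 ratio of FPKM + 1, day 30 to day 4, against the GC content of the transcript (%), in the DMSO libraries (left) and the NCD38 libraries (right); grey points are 9831 expressed genes and red points the 10 genes described. Ratios fall with GC content, CDK1 lies at the upper left and above the genes of like GC content, and CCNB1 lies below them.

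In FPKM, the balance of cyclin to kinase transcripts thus differed between days. CCNB1 was 1.54 to 2.27 times CDK1 in FPKM in the libraries of day 30 and 17.6 to 88.1 times on day 4, and CCNB2 was 0.906 to 1.38 times CDK1 on day 30 and 9.92 to 30.4 times on day 4. The ranges of the days do not overlap for either cyclin. They include the GC trend, since in DMSO genes of like GC content had medians of 1.62 for CDK1, 1.03 for CCNB1 and 0.27 for CCNB2. These are log2 ratios of day 30 to day 4. CDK1 on day 4 rests on an estimated 17 to 108 fragments.

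The order of the libraries was shared by some genes more than by others. Over the 8 libraries, Pearson's r of log2 FPKM + 1 was 0.99 between CDC25B and FZR1, 0.99 between CDC20 and CDC25B and 0.97 between CDC20 and FZR1, and these are the genes of highest GC content among the 10. CCNB2 and CDC25C had r = 0.93 and CCNB1 and CCNB2 r = 0.87. CDK1 ran against FZR1 (r = -0.97) and the highest r of CCNA2 was 0.56, with CCNB2. The libraries share a day, a depth and a base composition trend, so r is a description of these 8 libraries. The mean of the standardised values of the 10 genes was lowest with DMSO on day 30 (-1.09), followed by NCD38-β2P4 (-0.68) and NCD38-β2PIPP (-0.61), and was 0.39 with NCD38 on day 30 and 0.26 to 0.70 in the libraries of day 4. NCD38 on day 30 was thus within the range of day 4 by this mean, but not gene by gene. CDK1 and PTTG1 stood above their FPKM ranges of day 4, and CCNB1, CDC20, CDC25B and FZR1 below theirs.

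The expressed genes most like this mean over the 8 libraries included KIF20A (r = 0.97), a kinesin of cytokinesis, and TACC3 (r = 0.96), a spindle protein. KIF20A was at 2.29, 6.54, 3.22 and 3.10 FPKM on day 30 in the order DMSO, NCD38, NCD38-β2P4 and NCD38-β2PIPP, and at 7.52, 5.11, 9.55 and 9.82 FPKM on day 4, so that, as for CCNB2, NCD38 was the highest library of day 30 and the lowest of day 4. Others were CHRNB1 (r = 0.99), LOC389641 (0.96), CLSTN3 (0.96), LOC100289104 (0.95), GBA2 (0.95), PLEKHG2 (0.95) and ATP6V0E1 (0.95). They were among the highest of 10865 genes by a measure taken over 8 libraries, so that high values are to be found among so many genes. CCNB1 itself had r = 0.97 with the mean, CDK1 -0.65 and CCNA2 0.22.

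The partners of these genes were taken from 6 lists with 88 genes in all. On day 30 with NCD38, the substrates of the APC/C, proteins that it marks for destruction, had a median of 0.75 (log2 ratio) for the 23 of 24 that were expressed, and 14 passed 1.5-fold above DMSO and 0 below it, beside 4.00% and 2.80% of all expressed genes. PLK1, a mitotic kinase, had the highest ratio of this list (1.66), with 4.33 FPKM with DMSO, 15.8 with NCD38, 5.83 with its P4 conjugate and 5.22 with its PIPP conjugate. CDC6, a replication licensing factor that is also in the list of G1 and S phase genes, had the lowest (-0.49), with 17.3, 12.0, 21.7 and 17.0 FPKM.

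The subunits of the APC/C itself had a median of 0.045 over 14 genes, from -0.39 for CDC16 to 0.61 for CDC26, and 1 was at least 1.5-fold higher. Its regulators and E2 enzymes had a median of 0.35 over 10 expressed genes of 11, with 2 at least 1.5-fold higher, and BUB1B, a checkpoint kinase that restrains the APC/C, had the highest ratio (0.96, with 5.34 FPKM with DMSO, 11.3 with NCD38, 7.57 with its P4 conjugate and 7.62 with its PIPP conjugate). MAD1L1, another checkpoint gene, had the lowest (-0.14). Regulators of CDK1 activity had a median of 0.28 over 17 genes, with 1 past 1.5-fold, CKS1B (0.75), a small protein that binds cyclin-dependent kinases, and the lowest was ARPP19 (-0.079). The G1 and S phase cyclins and kinases had a median of 0.075 over 9 expressed genes of 10, with 0 past 1.5-fold and CCND2 the highest (0.49). Transcription factors of G2/M genes had a median of 0.11 over 13 expressed genes of 14, with FOXM1, an activator of such genes, the one past 1.5-fold (0.75), and RBL1 the lowest (-0.043). FOXM1 is also in the list of APC/C substrates, so it is counted past 1.5-fold in both lists. FOXM1 was at 10.9 FPKM with DMSO, 19.0 with NCD38, 12.4 with its P4 conjugate and 12.0 with its PIPP conjugate on day 30, and between 51.4 and 56.0 FPKM on day 4.

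On day 4 with NCD38 the lists had 0 members past 1.5-fold above DMSO, and 5 of 14 APC/C subunits, 2 of 10 regulators and E2 enzymes, 6 of 23 substrates, 6 of 17 regulators of CDK1, 4 of 9 G1 and S phase genes and 5 of 13 transcription factors past it below DMSO, where 2.10% of expressed genes were higher and 22.5% lower. The medians were -0.47 for APC/C subunits, -0.29 for regulators and E2 enzymes, -0.12 for substrates, -0.51 for regulators of CDK1, -0.42 for G1 and S phase genes and -0.041 for transcription factors, beside -0.21 for all expressed genes. The medians of the substrates and of the transcription factors were above that of all genes on both days. With the conjugates on day 30, the substrates had a median of 0.32 with the P4 and 0.27 with the PIPP conjugate, and 1 of 23 was at least 1.5-fold higher with each.

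Between days, the lists split. In DMSO, the APC/C subunits had 6 of 14 genes at least 1.5-fold higher on day 30 and 3 lower, beside 33.0% and 30.6% of expressed genes, with ANAPC4 the highest (log2 ratio 3.16) and ANAPC2 the lowest (-1.14). ANAPC4 was at 9.35 to 12.9 FPKM on day 30 and 0.198 to 1.65 on day 4, and its log2 ratio was above that of CDK1 (2.84). Of the substrates, 6 were higher and 12 lower, from CENPF, a kinetochore protein (2.11), to PLK1 (-3.95), which was at 4.33 to 15.8 FPKM on day 30 and 74.6 to 110.2 on day 4. UBE2S, the E2 enzyme that extends the chains UBE2C begins, was the lowest of the regulators (-2.09), with 83.8 to 162 FPKM on day 30 and 307 to 504 on day 4, and UBE2D1 the highest (1.89). Among regulators of CDK1, 8 were higher and 6 lower, from CCNH, the cyclin of the CDK-activating kinase (3.41), to CCNF (-2.39). Of the G1 and S phase genes 2 were higher and 4 lower, from CCNE2 (1.72) to CCND3 (-1.68), and of the transcription factors 5 were higher and 4 lower, from NFYB, a subunit of the factor that binds CCAAT (2.30), to MYBL2 (-2.32). Each of the 6 lists thus held genes past 1.5-fold in both directions, as did the 10 genes themselves. The ratios of the list genes include the trend with GC content between days, which was not subtracted from them. Of the highest genes named, ANAPC4, CENPF, UBE2D1, CCNE2 and NFYB were at 0.226 to 0.515 FPKM in DMSO on day 4, and CCNH at 2.49. Of the 10, 1 was higher and 6 were lower on day 30 in DMSO, 3 were higher and 3 lower with NCD38 (44.4% and 28.5% of expressed genes), 1 higher and 5 lower with NCD38-β2P4 (30.3% and 30.9%) and 1 higher and 6 lower with NCD38-β2PIPP (22.0% and 35.1%).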

How the data were processed

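RNA expression was analysed in 8 libraries of RKO cells, 1 per condition; 30 ChIP samples were not analysed here. The authors prepared stranded mRNA libraries, aligned reads with TopHat and deposited FPKM estimated by Cufflinks, normalized to exon length and mapped fragments. The submitters' processing notes also name HISAT2 2.2.1.0, BWA 0.5.9 and bedtools 2.20.1, without a role. FPKM holds no counts, so no count test was used, and a 0 can be a failed estimate.

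Of 25594 entries, 90 with a name shared by another entry were not used. Genes with a mean FPKM of at least 1 were analysed. The log2 ratio of FPKM plus a pseudocount of 1 was taken within a day, between days or between compounds, in 16 comparisons of 2 libraries without a test, and understates the change of low genes. A gene was counted as higher or lower past 1.5-fold. Day and treatment were fitted together with limma 3.58.1 (R 4.3.3, empirical Bayes with trend, Benjamini-Hochberg adjustment over 10865 genes), with 4 libraries a day and 2 a treatment. Its p-values measure the spread between these libraries under the assumption that treatments act alike on both days; the difference between days of a treatment's effect cannot be tested, since no degrees of freedom would remain.

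Depth was estimated from the FPKM value at which genes pile up at 1 fragment, with transcript lengths of GENCODE release 44 on GRCh37, and is not a recovered count; the 95% half-widths cover counting error only. Lengths and GC content were matched for 9831 of 10865 genes (90.5%). Genes of like GC content are those of the same bin of 20. Promoter sequences are RefSeq's.

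The 10 genes and the lists were chosen with earlier results of these data known. Named were the 10 genes, of each list the highest and lowest with NCD38 on day 30 and between days in DMSO, and the other genes most correlated with the mean of the 10, of which 1 is not reported here. The limma step was tested on simulated data for 10865 genes: for the contrast of NCD38 with DMSO it recovered 8% of 100 genes changed 2-fold and 78% of 100 changed 8-fold. Alternatives changed the pseudocount, the scaling, the filter, the GC trend, the DMSO library, the fold, the limma settings and the libraries included. Python 3.11.15 with pandas and numpy was used.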

Additional observations from a re-analysis of the deposited data

Results flagged for a closer look

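For 4 of the genes, NCD38 had ratios to DMSO of opposite sign on the 2 days, each beyond its counting half-width. The log2 ratio on day 30 less that on day 4 was 1.25 for CCNA2, 1.51 for CCNB1, 1.63 for CCNB2 and 1.17 for CDC25C. With NCD38-β2P4 the same held for CCNB1 (0.74). With NCD38-β2PIPP it held for UBE2C (0.25) and PTTG1 (0.39), which were above DMSO on day 30 and below it on day 4. The differences were not tested, since each rests on 4 single libraries. How many of all expressed genes change sign in this way was not counted, so the changes cannot be called particular to these genes. With NCD38, 59.0% of expressed genes were above DMSO on day 30 and 31.7% on day 4. The shares were 62.1% and 65.0% with NCD38-β2P4, and 46.2% and 63.6% with NCD38-β2PIPP. Rescaling by the median ratio raises the NCD38 library of day 4 by 0.32 on the log2 scale and lowers that of NCD38-β2PIPP by 0.21. On that scale UBE2C and PTTG1 with NCD38-β2PIPP kept their opposite signs. UBE2C was at 0.12 on day 30 and -0.32 on day 4, and PTTG1 at 0.23 and -0.36. The GC content of these 4 genes with NCD38 was 41.9% to 46.3%, and on day 4 genes of like GC content had medians of -0.53 and -0.61. Relative to such genes the day 4 ratios with NCD38 were -0.026 for CCNA2, 0.20 for CCNB1, 0.051 for CCNB2 and 0.037 for CDC25C. The opposite sign was thus lost for the last 3, and CCNA2 was within its counting half-width (0.37). On rescaling, CCNB1 was at 0.0032 on day 4, and CCNA2 (-0.22), CCNB2 (-0.22) and CDC25C (-0.24) stayed below 0. Of these, CCNB2 was beyond its counting half-width (0.17), while CCNA2 (0.37) and CDC25C (0.31) were within theirs. The part of GC content was not tested.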

How the results depend on the processing

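Under other settings 2147 values were computed, of which 1785 stayed within their counting half-width, within 1.5 times for a count, or on their side of limma's threshold. A further 331 moved by more, 13 lost and 6 gained a call, and 12 that were past 1.5-fold changed sign. Sign changes of values short of 1.5-fold are not in that number. Values that limma called under neither setting are among the 1785 whatever their size or sign, as are counts that stayed at 0. The 1785 are thus no measure of how stable the values are. With the other day's DMSO library as control, the median log2 ratio of the 10 genes was -0.13 for NCD38 on day 30 in place of 0.68, 0.81 for NCD38 on day 4, -0.58 and 1.05 for NCD38-β2P4 on day 30 and day 4, and -0.60 and 1.01 for NCD38-β2PIPP. Of the genes past 1.5-fold, CCNB1 (-0.48), CDC20 (-1.05) and CDC25C (-0.35) then turned for NCD38 on day 30, CCNB1 (-1.05) for NCD38-β2P4 on day 30 and CDK1 (-1.62) for NCD38-β2PIPP on day 4; this alternative also changes the day.

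Rescaling by the median ratio, which removed shifts of the day 4 libraries of -0.32 for NCD38, 0.21 for NCD38-β2PIPP and 0.088 for NCD38-β2P4, gave medians on day 4 of 0.24 for NCD38 and -0.24 for NCD38-β2PIPP against DMSO, of -0.38 and -0.48 for NCD38-β2P4 and NCD38-β2PIPP against NCD38, and of 0.16 between the conjugates. Between days it gave -0.35 with NCD38 and -0.62 with NCD38-β2PIPP. Subtracting the GC trend gave, in the same order, 0.044, -0.15, -0.12, -0.37, 0.14, -0.51 and -0.53. Of the genes past 1.5-fold, it turned CCNA2 (-0.13), CCNB2 (-0.31) and CDC25B (0.075) between days with NCD38, and on day 4 CCNB2 (-0.035) and CDC25C (-0.21) for NCD38-β2P4 and CCNB2 (-0.19) for NCD38-β2PIPP against NCD38. With an FPKM of at least 1 required in all libraries, which leaves fewer genes, the list medians between days in DMSO were -0.35 for regulators of CDK1, -0.52 for G1 and S phase genes and -0.47 for transcription factors.

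With smaller pseudocounts 3 of the 10 genes were at least 1.5-fold lower with NCD38 on day 4 in place of 0. For day, limma called 5 of the 10 genes and 7277 genes without the replicate block (treatment left out of the model), and UBE2C lost its call; 0 of the 10 passed for a treatment there too. Leaving out 1 library at a time, 4 to 9 of the 10 passed for day, 9 without either NCD38 library, and 0 for any treatment. Genes called for NCD38 against DMSO, 4 in the fit reported, numbered 0 to 21 when 1 library was left out (21 without the DMSO library of day 30), 2 with no filter, 0 with the filter on every library and 1 without the block. A lone library is then assumed to vary like the others. With 1 library per condition, no value has a replicate check within a condition, and CDK1 on day 4 rests on few fragments.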
